A study of Mus musculus with 8 samples.

Results

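The comparison described here set embryoid bodies of iTbx6 T-GFP cells, a mouse embryonic stem cell line, that were cultured with doxycycline (Dox, the inducer) against those cultured without it, both at day 4. Its members were the 4 arrays titled DoxOn_day4 and DoxOFF_day4, 2 of each, out of 8 arrays in the series. The other 4 arrays are DoxOn_day2 and DoxOFF_day2, also 2 of each, and they served to share the estimate of the spread and to show the level from which day 4 departed. An embryoid body is a floating aggregate of differentiating stem cells. Cells of all 4 groups carry the inducible Tbx6 construct and the T-GFP reporter, and all were kept in serum-free differentiation medium to which no growth factor was added. For day 4, the aggregates were grown for 2 days, taken apart into single cells and left to reaggregate for 2 more days. The labels do not say when Dox was added or how long the cells were exposed. No cells that lack the construct were given Dox among these samples, so an effect of Dox itself and an effect of Tbx6 cannot be told apart. The labels do not tell whether the 2 replicates of a group were separate cultures, and the p-values therefore cover no more than the spread between these arrays, which may be technical.

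Tbx6 is a T-box transcription factor that marks the primitive streak and the presomitic mesoderm of the mouse embryo. During gastrulation, epiblast cells that receive Nodal, Wnt, BMP and FGF signals enter the streak, switch on T (Brachyury), Eomes, Mixl1 and Mesp1, and leave it as mesoderm or endoderm, while epiblast cells shielded from these signals become neural by default. Embryonic stem cells in serum-free medium without added factors likewise tend to leave pluripotency for a neural fate. Per the labels, the study used Dox for cardiac differentiation driven by a transcription factor, and the day-4 comparison asks which genes differed once cells had been kept with Dox rather than without it.

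Each array held 23473 gene probes, and between 20197 and 20927 of them (86.0% to 89.2%) were brighter than the background, set at the mean plus 2 SD of the blank spots. All values below are log2 intensities after subtraction of the blank mean and quantile normalization, and a change is the mean of DoxOn_day4 minus the mean of DoxOFF_day4 on that scale, with the standard error of the limma fit (n = 2 arrays per group). The lowest value possible was 1.04, a floor set from the blanks. Arrays of 1 group correlated at r = 0.9941 (DoxOn_day4) and 0.9938 (DoxOFF_day4) over the 21661 probes tested, and arrays of different day-4 groups at 0.954 to 0.956. The DoxOn_day4 arrays correlated more closely with the 4 day-2 arrays (0.975 to 0.977) than the DoxOFF_day4 arrays did (0.933 to 0.942). DoxOFF_day4 replicate 2 differed from the other 3 day-4 arrays in how the scanner's gains related (0.464 against 0.477 to 0.478 for the slope between gains). The 4 day-2 arrays had slopes of 0.466 to 0.467, so that apart from this array the slope went with the day. The part of DoxOFF_day4 replicate 2 in the results was not tested beyond leaving it out, and that of the slope was not tested.

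At day 4 limma called 6483 of 21661 probes (29.9%) at an adjusted p under 0.05, with 3117 (14.4%) higher and 3366 (15.5%) lower with Dox. On 13633 probes (62.9%) the 2 groups did not overlap, called or not. Of all probes tested, 1292 (5.96%) and 1079 (4.98%) were both called and changed at least 2-fold in these directions. Over 1 probe for each named gene, 15.6% were called higher and 16.3% lower, shares given for comparison with the counts of gene lists below. Members and lists were chosen with earlier results of these data known, so a list count that departs from these shares is no test of the list. The median log2 change of all probes was -0.04. At day 2, 1203 (5.55%) were higher and 1354 (6.25%) lower with Dox. Without DoxOFF_day4 replicate 2, limma called 4673 probes at day 4. No probe was called when the scanner's local background column, which followed the brightness of each spot, was used in place of the blanks. Under it 855 of the 21661 probes had an unadjusted p under 0.05, fewer than that threshold passes by chance. Genes are written below as having risen or fallen, or as higher or lower, only where the adjusted p was under 0.05. Without background correction the direction and call of T held, but its change was 4.14 in place of 6.55, since the level of the blank spots then stands in every value. In bulk RNA such as this, fewer cells of a type and less RNA per cell cannot be told apart.

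**Figure D1:**
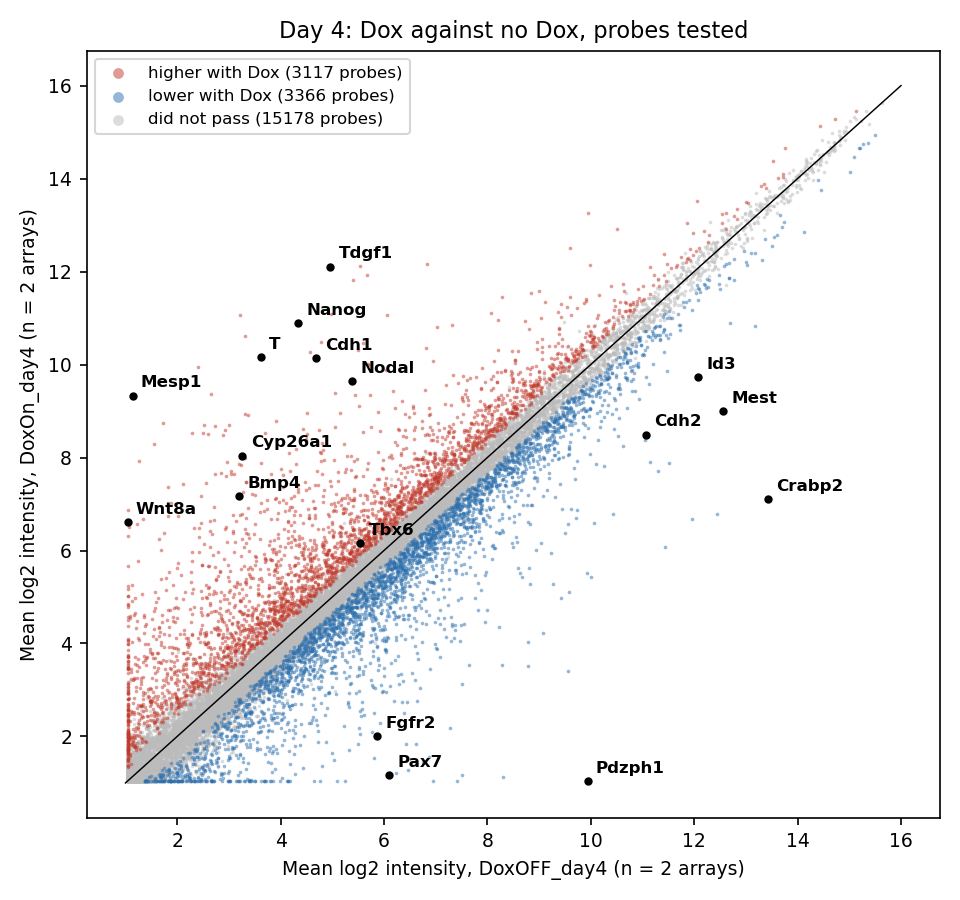
Mean log2 intensity of each tested probe in DoxOn_day4 (y axis) against DoxOFF_day4 (x axis), 2 arrays each; red probes were called higher with Dox, blue ones lower and grey ones did not pass, and the line marks equal means. Mesp1, T, Tdgf1 and Nanog lie far above the line at high intensity with Dox, Crabp2 and Pdzph1 far below it, and Tbx6 lies close to it.

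The Tbx6 probe itself changed little. It read 6.10 and 6.23 in DoxOn_day4, against 5.50 and 5.58 in DoxOFF_day4, a change of 0.62 ± 0.12 (adjusted p = 0.00915), with both DoxOn_day4 arrays above both DoxOFF_day4 arrays. That call did not hold without DoxOn_day4 replicate 2 (0.56, adjusted p = 0.053) or without DoxOFF_day4 replicate 1 (0.58, adjusted p = 0.0512). Which stretch of the Tbx6 transcript the probe reads was not known here, so it may lie outside the induced sequence and then does not check the labels. Of the 14 measured T-box factors, 5 rose and 0 fell: besides Tbx6, T and Eomes of the streak, these were Tbx3 (1.07 ± 0.19), a factor of naive stem cells and of several mesoderm derivatives, and Mga (0.48 ± 0.14), a repressor that carries a T-box. The call of Tbx3 did not hold without DoxOFF_day4 replicate 2 (1.0, adjusted p = 0.0515), and that of Mga did not hold when any 1 of the 4 day-4 arrays was left out (0.44 to 0.52, adjusted p 0.119 to 0.161), nor without either DoxOFF_day2 array (adjusted p = 0.0683). Tbx5 (-0.06 ± 0.17), of the heart and forelimb, and Tbx2 (0.27 ± 0.13) did not pass. The count of T-box factors that rose was 3 without DoxOn_day4 replicate 2 or without either DoxOFF_day4 array, and 1 factor was called lower without DoxOFF_day4 replicate 2 or either DoxOn_day2 array.

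Factors of the primitive streak and nascent mesoderm rose together. Of 13 measured members 9 rose and 0 fell, with a median log2 change of 3.07. Mesp1, a helix-loop-helix factor of the earliest cardiovascular mesoderm, read 9.40 and 9.27 in DoxOn_day4, against 1.17 and 1.11 in DoxOFF_day4. Neither DoxOFF_day4 array was above background for Mesp1, so that its change is a bound of at least 267-fold (adjusted p = 4.56e-07). T, the founding T-box gene, which streak cells and notochord need, read 10.17 and 10.15 in DoxOn_day4, against 3.54 and 3.68 in DoxOFF_day4 and rose by 6.55 ± 0.11. Mixl1, a homeobox factor of the streak, read 8.46 and 8.50 in DoxOn_day4, against 2.57 and 3.20 in DoxOFF_day4, and rose by 5.59 ± 0.20. Eomes, the T-box factor needed for cells to leave the epiblast, read 7.80 and 7.91 in DoxOn_day4, against 4.35 and 4.26 in DoxOFF_day4, a rise of 3.55 ± 0.11. For all of these the DoxOn_day4 arrays lay within a narrow range well above both DoxOFF_day4 arrays.

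The rises included factors of the anterior streak as well as of mesoderm. Lhx1, a LIM homeobox factor of anterior mesendoderm and head organizer tissue, read 7.89 and 7.92 in DoxOn_day4, against 2.93 and 3.01 in DoxOFF_day4 and rose by 4.93 ± 0.09. Foxa2, a forkhead factor of node, notochord and endoderm, rose by 3.20 ± 0.23, and Gsc (goosecoid), a homeobox factor of the organizer, rose by 3.07 ± 0.14. Evx1, a homeobox factor of the posterior streak, rose by 1.28 ± 0.11. Snai1, a repressor of E-cadherin in streak cells, rose by 1.03 ± 0.15. The posterior and later factors Cdx1 (0.24 ± 0.14), Cdx2 (0.08 ± 0.10), Hand1 (0.61 ± 0.23) and Mesp2 (0.34 ± 0.13) did not pass.

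The T-box motif AGGTGTGA, known from sites that T-box factors bind, and its core GGTGTG were sought on both strands of RefSeq promoters (GRCm38.p6, from 250 bases before to 50 bases after each gene start). The motif stood in 419 of 32851 promoters (1.28%) and the core, which every copy of the motif contains, in 19%. Among the 33 named genes with the largest rises, 19 matched a promoter and 7 of these (36.8%) held the core, against 3 of 22 (13.6%) among the genes with the largest falls. The whole motif stood in the promoters of 3 risen genes, Mesp1, Sycp3 and Ccl20, and in those of 0 of the 22 fallen genes with a promoter. These are counts of genes, some with several promoters of which any could match, whereas the 1.28% and 19% are shares of promoters. The promoter of T held neither. These matches describe letters in a window and are no evidence of binding. The sequences of the 3 promoters with the motif, and that of Pdzph1, the gene with the largest fall, follow with the motif or core in capitals, each read 5′ to 3′ on the strand of its gene. Mesp1 lies on the minus strand at chr7:79793541-79793840, Sycp3 on the plus strand at chr10:88459337-88459636, Ccl20 on the plus strand at chr1:83116516-83116815 and Pdzph1 on the minus strand at chr17:58991326-58991625.
Mesp1: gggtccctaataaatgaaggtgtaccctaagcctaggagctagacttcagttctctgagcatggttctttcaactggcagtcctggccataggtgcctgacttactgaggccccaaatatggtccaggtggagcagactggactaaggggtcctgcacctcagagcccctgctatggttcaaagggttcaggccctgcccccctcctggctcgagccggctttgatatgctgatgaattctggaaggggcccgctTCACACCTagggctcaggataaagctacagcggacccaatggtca
Sycp3: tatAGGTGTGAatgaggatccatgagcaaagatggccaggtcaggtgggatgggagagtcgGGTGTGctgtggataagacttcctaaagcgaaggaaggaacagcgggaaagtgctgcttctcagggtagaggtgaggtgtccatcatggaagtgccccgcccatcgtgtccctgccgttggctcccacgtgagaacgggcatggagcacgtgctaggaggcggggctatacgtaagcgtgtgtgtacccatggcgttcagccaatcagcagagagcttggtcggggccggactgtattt
Ccl20: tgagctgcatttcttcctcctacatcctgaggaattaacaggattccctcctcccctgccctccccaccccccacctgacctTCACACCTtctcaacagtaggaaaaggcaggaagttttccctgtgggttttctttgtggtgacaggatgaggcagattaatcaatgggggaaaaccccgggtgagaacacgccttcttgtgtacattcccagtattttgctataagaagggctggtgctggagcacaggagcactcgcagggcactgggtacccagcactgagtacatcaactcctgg
Pdzph1: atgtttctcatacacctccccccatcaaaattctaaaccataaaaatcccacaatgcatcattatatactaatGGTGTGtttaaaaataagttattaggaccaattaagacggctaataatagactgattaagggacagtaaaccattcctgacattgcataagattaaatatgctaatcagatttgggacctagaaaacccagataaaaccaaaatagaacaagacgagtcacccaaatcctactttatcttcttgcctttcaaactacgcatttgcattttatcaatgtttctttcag
In Mesp1 the core lies 6 bases past the gene start, which is the only copy there, whereas Sycp3 holds another copy of the core apart from the motif. Pdzph1 holds the core alone. Ccl20, a chemokine gene, was above background in neither DoxOFF_day4 array nor in any day-2 array, and read 5.38 and 5.09 in DoxOn_day4, at least 15.6-fold higher than in DoxOFF_day4.

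Genes of Nodal signalling, which induces the streak, rose at the level of ligand, co-receptor and feedback. Of 16 measured members of the pathway 6 rose and 2 fell. Nodal, the TGF-beta family ligand, read 9.59 and 9.68 in DoxOn_day4, against 5.48 and 5.28 in DoxOFF_day4 and rose by 4.26 ± 0.13. Gdf3, a related ligand of stem cells and epiblast, read 5.80 and 5.75 in DoxOn_day4, against 1.04 and 1.44 in DoxOFF_day4 and rose by 4.53 ± 0.14. Both DoxOn_day4 arrays lay above both DoxOFF_day4 arrays for each ligand. Tdgf1 (Cripto), the co-receptor that Nodal needs, rose by 7.14 ± 0.18, and Foxh1, the forkhead partner of the activated SMADs, rose by 2.93 ± 0.15. Among the antagonists, Lefty1, a feedback inhibitor of Nodal, read 8.49 and 8.72 in DoxOn_day4, against 4.31 and 4.56 in DoxOFF_day4 and rose by 4.17 ± 0.14, and Fst (follistatin), which binds activin, read 10.30 and 10.25 in DoxOn_day4, against 4.83 and 4.31 in DoxOFF_day4 and rose by 5.70 ± 0.17. The antagonist Cer1 did not pass (0.45 ± 0.28), nor did the activin subunit genes Inhba (-0.27 ± 0.20) and Inhbb (-0.12 ± 0.13). The receptor gene Acvr2b was lower (-0.80 ± 0.13), as was the shared transducer Smad4 (-0.52 ± 0.11), whose call did not hold without DoxOn_day4 replicate 1 (-0.48, adjusted p = 0.0591) or DoxOFF_day4 replicate 2 (-0.47, adjusted p = 0.0566).

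**Figure D2:**
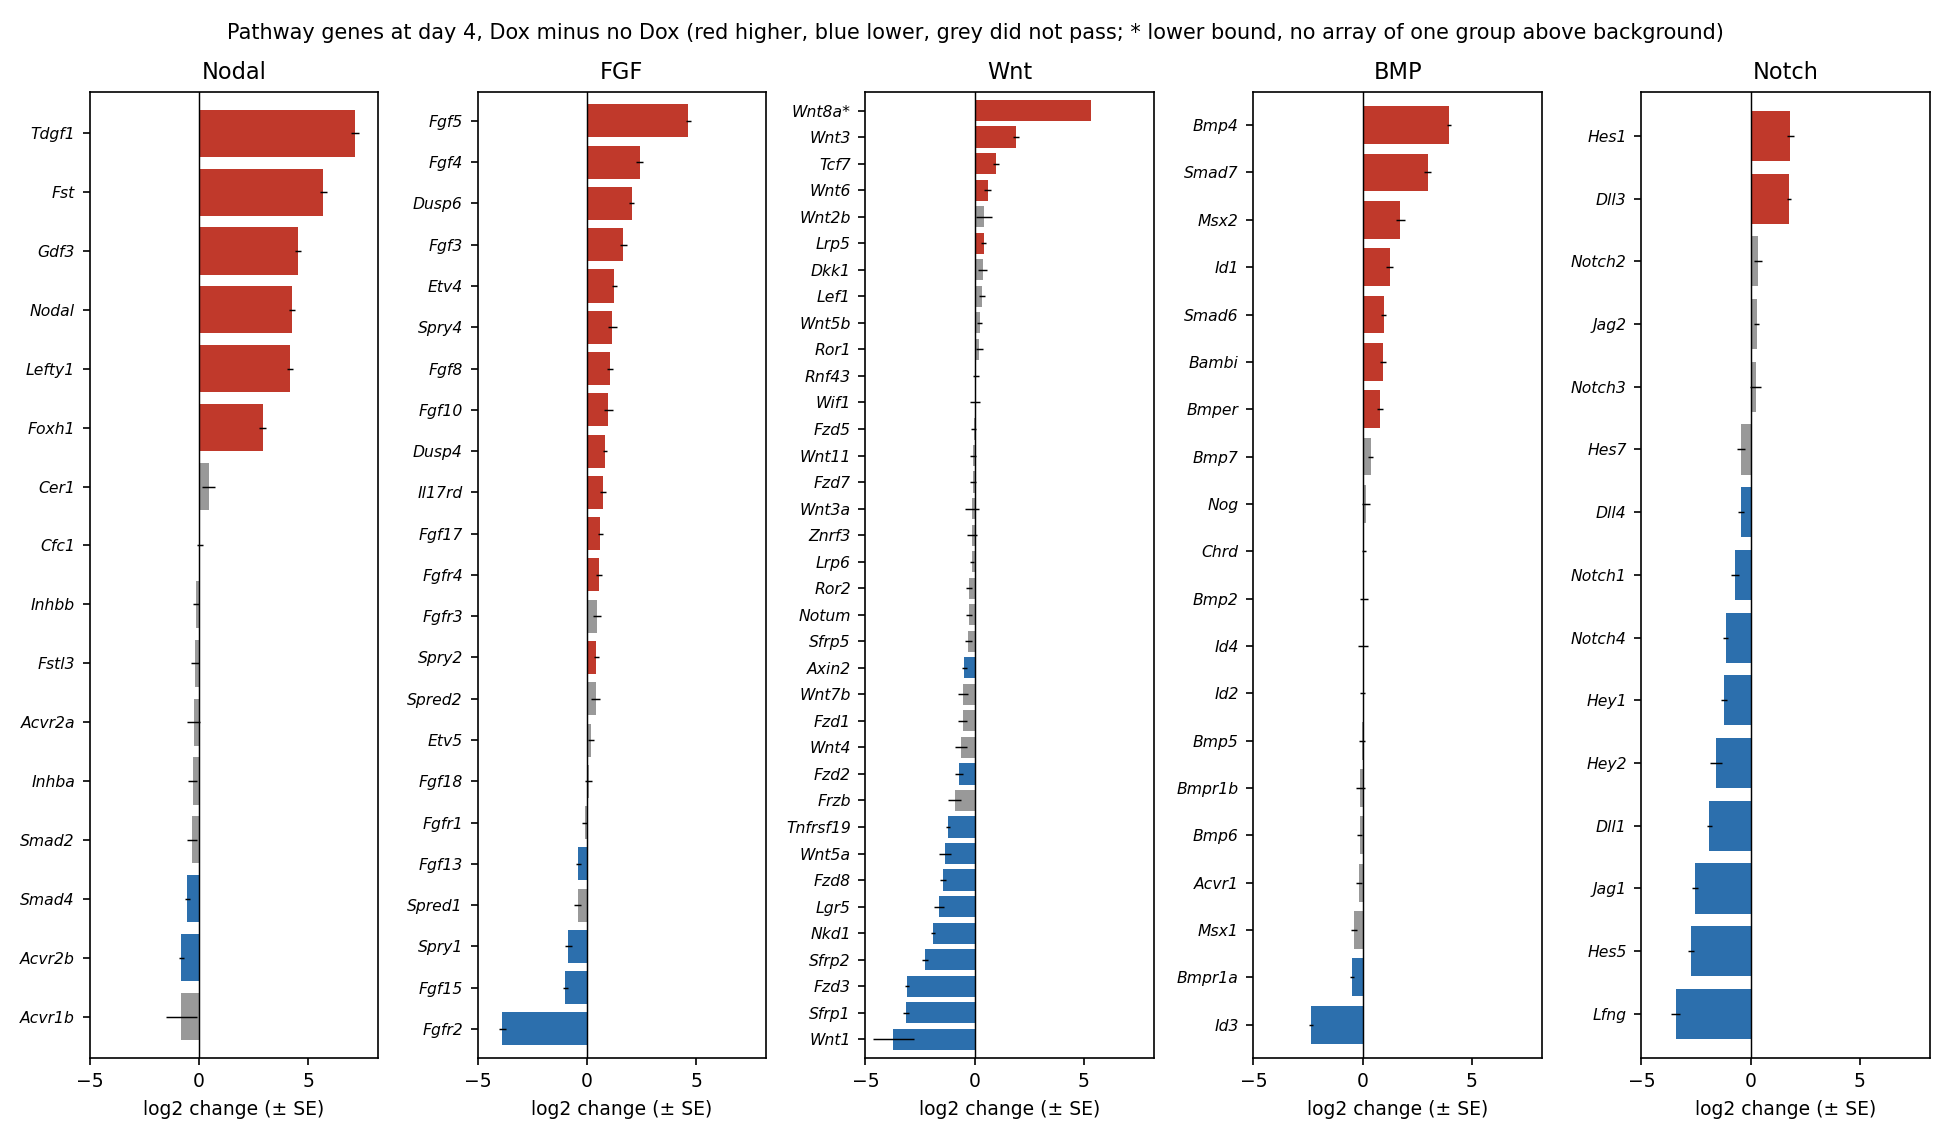
Log2 change with Dox at day 4 (x axis, bars with the standard error of the limma fit) for every measured member of the Nodal, FGF, Wnt, BMP and Notch lists (1 panel each); red bars were called higher, blue bars lower and grey bars did not pass, and an asterisk marks a lower bound. Long red bars stand in the Nodal and FGF panels, whereas most called members of the Wnt and Notch panels are blue.

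Of 36 measured Wnt genes 5 were higher and 11 lower, beside 15.6% higher and 16.3% lower over all named genes tested. Wnt3, the ligand that the mouse epiblast needs to form a streak, read 6.14 and 6.01 in DoxOn_day4, against 4.26 and 4.14 in DoxOFF_day4 and rose by 1.87 ± 0.14. Wnt8a, a ligand of the streak, read 6.46 and 6.76 in DoxOn_day4, against 1.04 and 1.04 in DoxOFF_day4, at least 40.5-fold higher, with neither DoxOFF_day4 array above background. The nuclear partner gene Tcf7 rose by 0.99 ± 0.14. Those that fell were 4 targets, 3 receptors, 2 secreted antagonists and 2 ligands. The secreted antagonist Sfrp1 read 5.44 and 5.58 in DoxOn_day4, against 8.65 and 8.62 in DoxOFF_day4, a change of -3.13 ± 0.14, and Sfrp2 changed by -2.28 ± 0.16. The receptor gene Fzd3 read 3.90 and 3.90 in DoxOn_day4, against 6.95 and 7.05 in DoxOFF_day4, a change of -3.10 ± 0.11, and Fzd8 changed by -1.46 ± 0.13. The targets Nkd1 (-1.91 ± 0.10), an inhibitor of the pathway, Lgr5 (-1.61 ± 0.23), a receptor of R-spondins, and Tnfrsf19 (-1.22 ± 0.10) were lower too. Wnt1, a ligand of the midbrain and dorsal neural tube, read 1.04 and 4.42 in DoxOn_day4, against 6.34 and 6.56 in DoxOFF_day4. Its DoxOn_day4 arrays disagreed, 1 being at the floor, and the call of its fall (-3.72 ± 0.93, adjusted p = 0.0239) did not hold without DoxOFF_day4 replicate 1 (-3.82, adjusted p = 0.101) or replicate 2 (-3.61, adjusted p = 0.123), nor without either DoxOn_day2 array (adjusted p = 0.0502) or in a fit of the day-4 arrays alone (adjusted p = 0.12). The change was -2.03 without DoxOn_day4 replicate 1 and -5.41 without replicate 2. The count of Wnt genes that rose was 3 without DoxOn_day4 replicate 1 or without either DoxOFF_day4 array. Rspo3, which strengthens Wnt signals in presomitic mesoderm, rose by 1.69 ± 0.14.

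FGF ligands and their transcriptional feedback genes were mostly higher. Of 23 measured members of the FGF list 13 rose and 4 fell, including 6 of 9 ligands and 6 of 10 feedback or target genes among the rises. Fgf5, a ligand of the epiblast, read 7.94 and 7.76 in DoxOn_day4, against 3.24 and 3.16 in DoxOFF_day4 and rose by 4.65 ± 0.11. Fgf4, the ligand of stem cells that acts on their exit from pluripotency, rose by 2.43 ± 0.15, and Fgf8, a ligand that streak cells need to migrate, rose by 1.07 ± 0.15. Fgf3 rose by 1.67 ± 0.17. The feedback genes Dusp6, an ERK phosphatase (2.06 ± 0.10), Etv4, an ETS factor (1.26 ± 0.13), and Spry4, an inhibitor of receptor signalling (1.17 ± 0.20), rose as well. Fgf15, a ligand of neural tissue, was lower (-0.97 ± 0.11). The receptor gene Fgfr2 read 2.26 and 1.76 in DoxOn_day4, against 5.98 and 5.76 in DoxOFF_day4, a change of -3.86 ± 0.18, which was the strongest fall among the members, while Fgfr1 did not pass (-0.09 ± 0.11).

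Bmp4 and inhibitors of BMP signalling were higher. Of 20 measured members of the BMP list 7 rose and 2 fell. Bmp4, the ligand that induces ventral mesoderm, read 7.19 and 7.15 in DoxOn_day4, against 3.25 and 3.16 in DoxOFF_day4 and rose by 3.96 ± 0.10, although its highest level was at day 2 with Dox (10.03 and 9.91). The inhibitory SMAD genes Smad7 (2.98 ± 0.16) and Smad6 (0.96 ± 0.11), the decoy receptor gene Bambi (0.93 ± 0.13) and the target Msx2, a homeobox factor (1.72 ± 0.20), rose. The targets of the Id family, which encode inhibitors of helix-loop-helix factors, did not move as a block. Id1 read 9.91 and 9.52 in DoxOn_day4, against 8.36 and 8.59 in DoxOFF_day4, a rise of 1.24 ± 0.16. Id3 read 9.78 and 9.67 in DoxOn_day4, against 12.10 and 12.06 in DoxOFF_day4, a change of -2.35 ± 0.10. Id2 (0.01 ± 0.12) and Id4 (0.01 ± 0.22) did not pass, nor did the antagonists Nog (0.17 ± 0.18) and Chrd (0.07 ± 0.10).

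Notch genes were mostly lower, with 9 of 15 measured members lower and 2 higher and a median log2 change of -0.71. Lfng, a glycosyltransferase that modifies Notch receptors and oscillates in presomitic mesoderm, read 1.71 and 1.04 in DoxOn_day4, against 4.79 and 4.82 in DoxOFF_day4, a change of -3.43 ± 0.20. The ligand genes Dll1 (-1.88 ± 0.13) and Jag1 (-2.53 ± 0.14) were lower, and so were the target genes Hes5 (-2.72 ± 0.15), which acts in neural progenitors, and Hey1 (-1.22 ± 0.15). The exceptions were Dll3 (1.76 ± 0.11), a divergent ligand of presomitic mesoderm, and Hes1 (1.81 ± 0.16), a repressor used in many tissues. Hes3, a repressor of neural progenitors of the midbrain and hindbrain that stands in no list, was among the largest falls and read 1.68 and 2.02 in DoxOn_day4, against 6.49 and 6.76 in DoxOFF_day4.

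Of 12 measured genes of retinoic acid handling 2 rose and 3 fell, among them 1 of 1 breakdown gene that rose and 2 of 4 binding or uptake genes that fell. Cyp26a1, the enzyme that breaks down retinoic acid in the streak and early mesoderm, read 8.07 and 8.0 in DoxOn_day4, against 3.59 and 2.94 in DoxOFF_day4 and rose by 4.77 ± 0.21. Crabp1 and Crabp2, cytoplasmic retinoic acid binding proteins, both fell, with Crabp1 reading 6.24 and 5.92 in DoxOn_day4, against 11.40 and 11.48 in DoxOFF_day4 and Crabp2 reading 7.17 and 7.03 in DoxOn_day4, against 13.42 and 13.45 in DoxOFF_day4. The DoxOFF_day4 arrays stood above the other 6 arrays of the series for both genes. The synthesis gene Aldh1a2 (-0.15 ± 0.16) and the retinol enzyme gene Rdh10 (-0.01 ± 0.19) did not pass.

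Pluripotency genes were higher with Dox. Of 28 measured members 21 rose and 2 fell, with a median log2 change of 1.75, and 10 of 13 naive factors were among the rises. Nanog, a homeobox factor of naive cells and early epiblast, read 11.01 and 10.77 in DoxOn_day4, against 4.55 and 4.12 in DoxOFF_day4 at day 4 and 10.76 and 10.95 in DoxOn_day2, against 9.44 and 9.63 in DoxOFF_day2 at day 2. Zfp42 (Rex1), a zinc finger gene of naive cells, read 8.96 and 8.91 in DoxOn_day4, against 3.43 and 3.21 in DoxOFF_day4, a rise of 5.61 ± 0.11. Nr0b1 (Dax1), a nuclear receptor of stem cells, was at least 37.4-fold higher. Dppa4 (5.56 ± 0.18), a chromatin protein of pluripotent cells, and Dnmt3l (4.0 ± 0.11), a cofactor of DNA methylation, rose too. For these 5 genes DoxOFF_day4 had the lowest mean of the 4 groups. For Zfp42, Nr0b1 and Dppa4 the DoxOn_day4 means (8.93, 6.50 and 8.92) also lay below those of both day-2 groups. In the same order these were 11.97, 9.67 and 11.25 in DoxOn_day2, and 9.46, 8.24 and 10.34 in DoxOFF_day2. Esrrb (0.28 ± 0.18), Tfcp2l1 (-0.04 ± 0.10) and Prdm14 (0.42 ± 0.29), factors of the naive state, did not pass. Of the primed epiblast genes, Fgf5 and Dnmt3b, a DNA methyltransferase (2.92 ± 0.09), rose, whereas Otx2, an anterior epiblast and forebrain factor, was lower (-0.93 ± 0.10). Levels of Pou5f1 and Sox2 were not analysed here.

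Epithelial genes were higher with Dox in nearly every measured member, 13 of 14, with 0 lower and a median log2 change of 4.06. Cdh1 (E-cadherin), the adhesion molecule of epithelia, read 10.07 and 10.21 in DoxOn_day4, against 4.79 and 4.60 in DoxOFF_day4 and rose by 5.45 ± 0.13. Epcam, another adhesion molecule, read 11.12 and 11.07 in DoxOn_day4, against 4.90 and 5.06 in DoxOFF_day4 and rose by 6.12 ± 0.10. Esrp1, a splicing factor of epithelial cells, read 8.47 and 8.60 in DoxOn_day4, against 2.56 and 2.43 in DoxOFF_day4 and rose by 6.04 ± 0.10. Both DoxOn_day4 arrays stood well above both DoxOFF_day4 arrays for all 3. Their means in DoxOn_day2 and DoxOFF_day2 were 10.09 and 10.67 for Cdh1, 10.85 and 11.49 for Epcam and 8.27 and 8.37 for Esrp1. DoxOFF_day4 was thus the low group for these 3 genes, and DoxOn_day4 lay near the levels of day 2. The tight junction genes Cldn6 (5.68 ± 0.11) and Cldn7 (3.86 ± 0.11), the polarity gene Crb3 (4.89 ± 0.12), the small GTPase gene Rab25 (4.92 ± 0.24) and the membrane protease gene St14 (4.26 ± 0.13) also rose. Ap1m2, a subunit of the epithelial clathrin adaptor that is outside the list, rose by 5.69 ± 0.13. Only Cldn4 missed the threshold (-0.16 ± 0.12, adjusted p = 0.39).

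On the mesenchymal side of the same list, 2 of 12 measured members rose and 5 fell. Cdh2 (N-cadherin), carried by neural tissue as well as mesoderm, read 8.51 and 8.47 in DoxOn_day4, against 11.07 and 11.07 in DoxOFF_day4, a change of -2.58 ± 0.10. Zeb1, a repressor of E-cadherin, read 4.81 and 4.60 in DoxOn_day4, against 7.0 and 6.63 in DoxOFF_day4, a change of -2.11 ± 0.16, and Snai2 changed by -1.05 ± 0.18. Fn1 (fibronectin), the matrix protein of migrating mesoderm, rose by 1.38 ± 0.23 beside Snai1. Vim (vimentin) did not pass (0.04 ± 0.13), nor did Twist1 (0.15 ± 0.11).

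**Figure D3:**
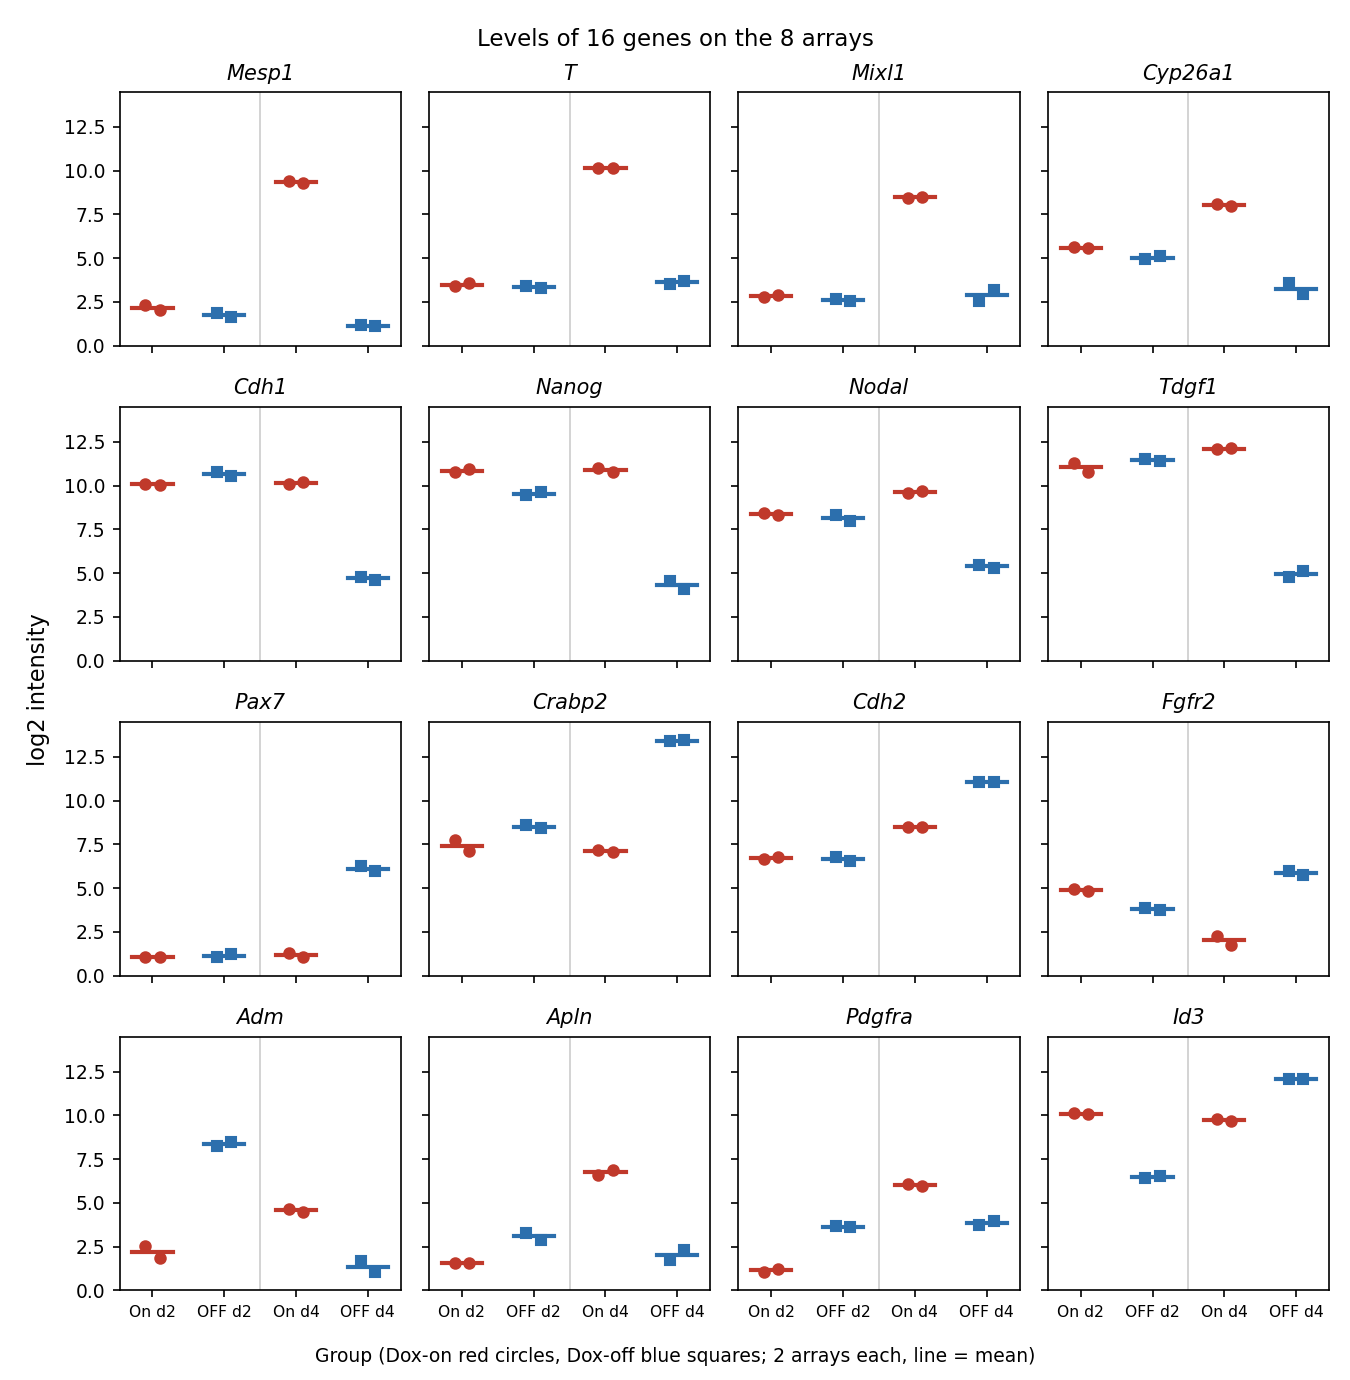
Log2 intensity (y axis) of 16 genes on all 8 arrays, by group (x axis; Dox-on red circles, Dox-off blue squares, day 2 left of day 4; bars are means of 2 arrays). In the first row Mesp1, T and Mixl1 are high in DoxOn_day4 alone, in the second row Cdh1, Nanog, Nodal and Tdgf1 are low in DoxOFF_day4 alone, in the third row Pax7, Crabp2 and Cdh2 are high in DoxOFF_day4, and in the last row the 2 days differ in direction.

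Neural genes were lower with Dox. Of 49 measured members 28 fell and 4 rose, with a median log2 change of -0.84. Pax7, a paired box factor of the dorsal neural tube and of muscle precursors, read 1.30 and 1.04 in DoxOn_day4, against 6.25 and 5.95 in DoxOFF_day4, with the DoxOn_day4 arrays near the floor. Pou3f2, a POU factor of neural progenitors, read 3.19 and 3.09 in DoxOn_day4, against 6.28 and 6.29 in DoxOFF_day4, a change of -3.15 ± 0.19. Fabp7, a lipid binding protein of radial glia, read 6.57 and 6.78 in DoxOn_day4, against 11.89 and 12.02 in DoxOFF_day4, a change of -5.29 ± 0.11. The midbrain and hindbrain factors En1 (-2.21 ± 0.13) and En2 (-2.24 ± 0.16), the spinal cord and hindbrain factor Irx3 (-3.23 ± 0.14), Pax3 (-3.37 ± 0.22) and Pax6 (-3.10 ± 0.16) fell too. Emx2, a forebrain factor, was at least 5.54-fold lower. Genes outside the list that fell by as much include Otx1 (-4.47 ± 0.11), a forebrain and midbrain factor, Dmbx1 (-4.76 ± 0.17), a midbrain homeobox factor, Irx5 (-4.84 ± 0.12) and Fez1 (-5.28 ± 0.11), which acts in axon growth. Ednrb, the endothelin receptor of neural crest, was at least 18.3-fold lower.

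Among neuron genes the picture was mixed, with 6 of 14 lower and 2 higher. Tubb3, a neuronal tubulin (-1.56 ± 0.14), Stmn3 (-1.90 ± 0.14), Elavl4 (-1.92 ± 0.12) and Neurod4 (-2.18 ± 0.28) were lower. Gap43, a growth cone protein, read 8.42 and 8.49 in DoxOn_day4, against 6.31 and 6.42 in DoxOFF_day4, a rise of 2.09 ± 0.10, and Stmn2, a microtubule regulator, rose by 1.51 ± 0.11. The progenitor factor Zic5 rose by 1.60 ± 0.09 against 12 of 21 such factors that fell. Six3 (-0.30 ± 0.25), Lhx5 (-0.32 ± 0.26) and Lhx2 (-0.36 ± 0.18), of the anterior neural plate, forebrain and eye, did not pass, nor did Nes (nestin, 0.05 ± 0.11). In the axon guidance list 12 of 25 measured members fell and 6 rose, with Efna5 (-3.13 ± 0.16) and Efnb1 (-3.01 ± 0.16), both ephrins, lowest and the netrin receptor gene Unc5b (3.89 ± 0.13) highest, and 7 fell without either DoxOFF_day4 array. In the Hedgehog list 0 of 9 rose and 2 fell, Smo (-1.08 ± 0.12), the transducer, and Gli2 (-0.54 ± 0.10).

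Of the genes of mesoderm derivatives some rose. Of 12 measured smooth muscle and actin genes 7 rose and 0 fell. Acta2 (smooth muscle actin) read 7.05 and 7.05 in DoxOn_day4, against 3.95 and 3.98 in DoxOFF_day4 and rose by 3.08 ± 0.16, and Cnn1 (calponin) read 7.73 and 7.54 in DoxOn_day4, against 2.46 and 2.99 in DoxOFF_day4 and rose by 4.91 ± 0.19. Myh11, the smooth muscle myosin heavy chain, did not pass (-0.14 ± 0.18), nor did Mylk (0.07 ± 0.18) or Smtn (0.36 ± 0.15). Of 11 lateral plate and cardiovascular receptors and ligands 6 rose and 1 fell. Apln, the ligand of the apelin receptor, read 6.60 and 6.91 in DoxOn_day4, against 1.71 and 2.32 in DoxOFF_day4 and rose by 4.74 ± 0.23, and its receptor gene Aplnr, expressed in streak mesoderm, read 6.98 and 7.06 in DoxOn_day4, against 3.65 and 3.61 in DoxOFF_day4 and rose by 3.39 ± 0.11. Pdgfra, a receptor of paraxial and cardiac mesoderm, read 6.06 and 5.99 in DoxOn_day4, against 3.73 and 3.95 in DoxOFF_day4, a rise of 2.19 ± 0.12. Kdr (Flk1), the receptor that marks haemangiogenic and cardiac mesoderm, read 5.18 and 4.87 in DoxOn_day4, against 4.68 and 4.56 in DoxOFF_day4 and did not pass (0.40 ± 0.14, adjusted p = 0.0718). The chemokine receptor gene Cxcr4 was lower (-1.69 ± 0.19).

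Some heart genes rose. Of 12 measured cardiac transcription factors 3 rose and 1 fell, and the rises besides Mesp1 were Hopx (2.14 ± 0.10) and Gata6 (1.40 ± 0.21), which is also an endoderm factor. Gata4 (-0.58 ± 0.18), Hand2 (-0.84 ± 0.45), Isl1 (0.50 ± 0.26) and Tbx5 did not pass, and Smarcd3, a cardiac chromatin subunit, was lower (-1.34 ± 0.17), with 2 of these factors lower without DoxOFF_day4 replicate 1 or either DoxOn_day2 array. Of 17 sarcomere genes 6 rose and 0 fell, with 3 higher without DoxOn_day4 replicate 1. The atrial light chain gene Myl7 read 5.95 and 5.88 in DoxOn_day4, against 3.97 and 3.86 in DoxOFF_day4, a rise of 2.0 ± 0.09, but stood higher at day 2 (6.88 and 6.85 in DoxOn_day2, against 7.45 and 7.39 in DoxOFF_day2). The troponin gene Tnnt2 (0.10 ± 0.45) and the myosin heavy chain genes Myh6 (0.25 ± 0.36) and Myh7 (0.65 ± 0.33) did not pass. Levels of Nkx2-5, Mef2c and Actc1 were not analysed here.

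Of 21 measured endothelial and blood genes 5 rose and 0 fell. Etv2, the ETS factor at the head of the endothelial programme, read 7.32 and 7.37 in DoxOn_day4, against 4.82 and 4.30 in DoxOFF_day4, a rise of 2.79 ± 0.19. Lmo2, a partner of the blood factor Tal1, rose by 2.65 ± 0.10, and Flt1, a VEGF receptor, read 4.50 and 4.27 in DoxOn_day4, against 1.04 and 1.70 in DoxOFF_day4, a rise of 3.01 ± 0.36. Tal1 (0.35 ± 0.12), Runx1 (0.48 ± 0.46) and the endothelial cadherin gene Cdh5 (-0.34 ± 0.14) did not pass, and 1 member of the list was called lower without DoxOn_day4 replicate 1 or DoxOFF_day4 replicate 2. Pecam1, carried by stem cells as well as endothelium, was at least 3.33-fold higher, and was brighter at day 2 (6.54 and 6.47 in DoxOn_day2, against 5.58 and 5.43 in DoxOFF_day2).

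Genes of the somite did not rise. Of 12 measured somite genes 0 rose and 2 fell, which were Pax3 and Pax7, genes that neural tissue shares. Meox1 (-0.33 ± 0.21), Foxc1 (-0.26 ± 0.33) and Foxc2 (-0.23 ± 0.14) did not pass. Of 9 presomitic genes 4 rose, Dll3, Rspo3, Cited1 and Tbx6, and 2 fell, Dll1 and Lfng, while Ripply2 (-0.34 ± 0.22) and Hes7 (-0.43 ± 0.17) did not pass. Cited1, a transcriptional cofactor, read 8.47 and 8.41 in DoxOn_day4, against 7.66 and 7.76 in DoxOFF_day4 (change 0.73 ± 0.19), a call that did not hold when any 1 of the 4 day-4 arrays was left out (0.68 to 0.79, adjusted p 0.0917 to 0.123). In the Hox and Cdx list 1 of 20 measured members rose, Hoxb1 (1.26 ± 0.12), an early gene of the posterior streak, and 0 fell, against 2 that rose and 1 that fell without DoxOFF_day4 replicate 1 and 1 that fell without DoxOn_day4 replicate 2.

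**Figure D4:**
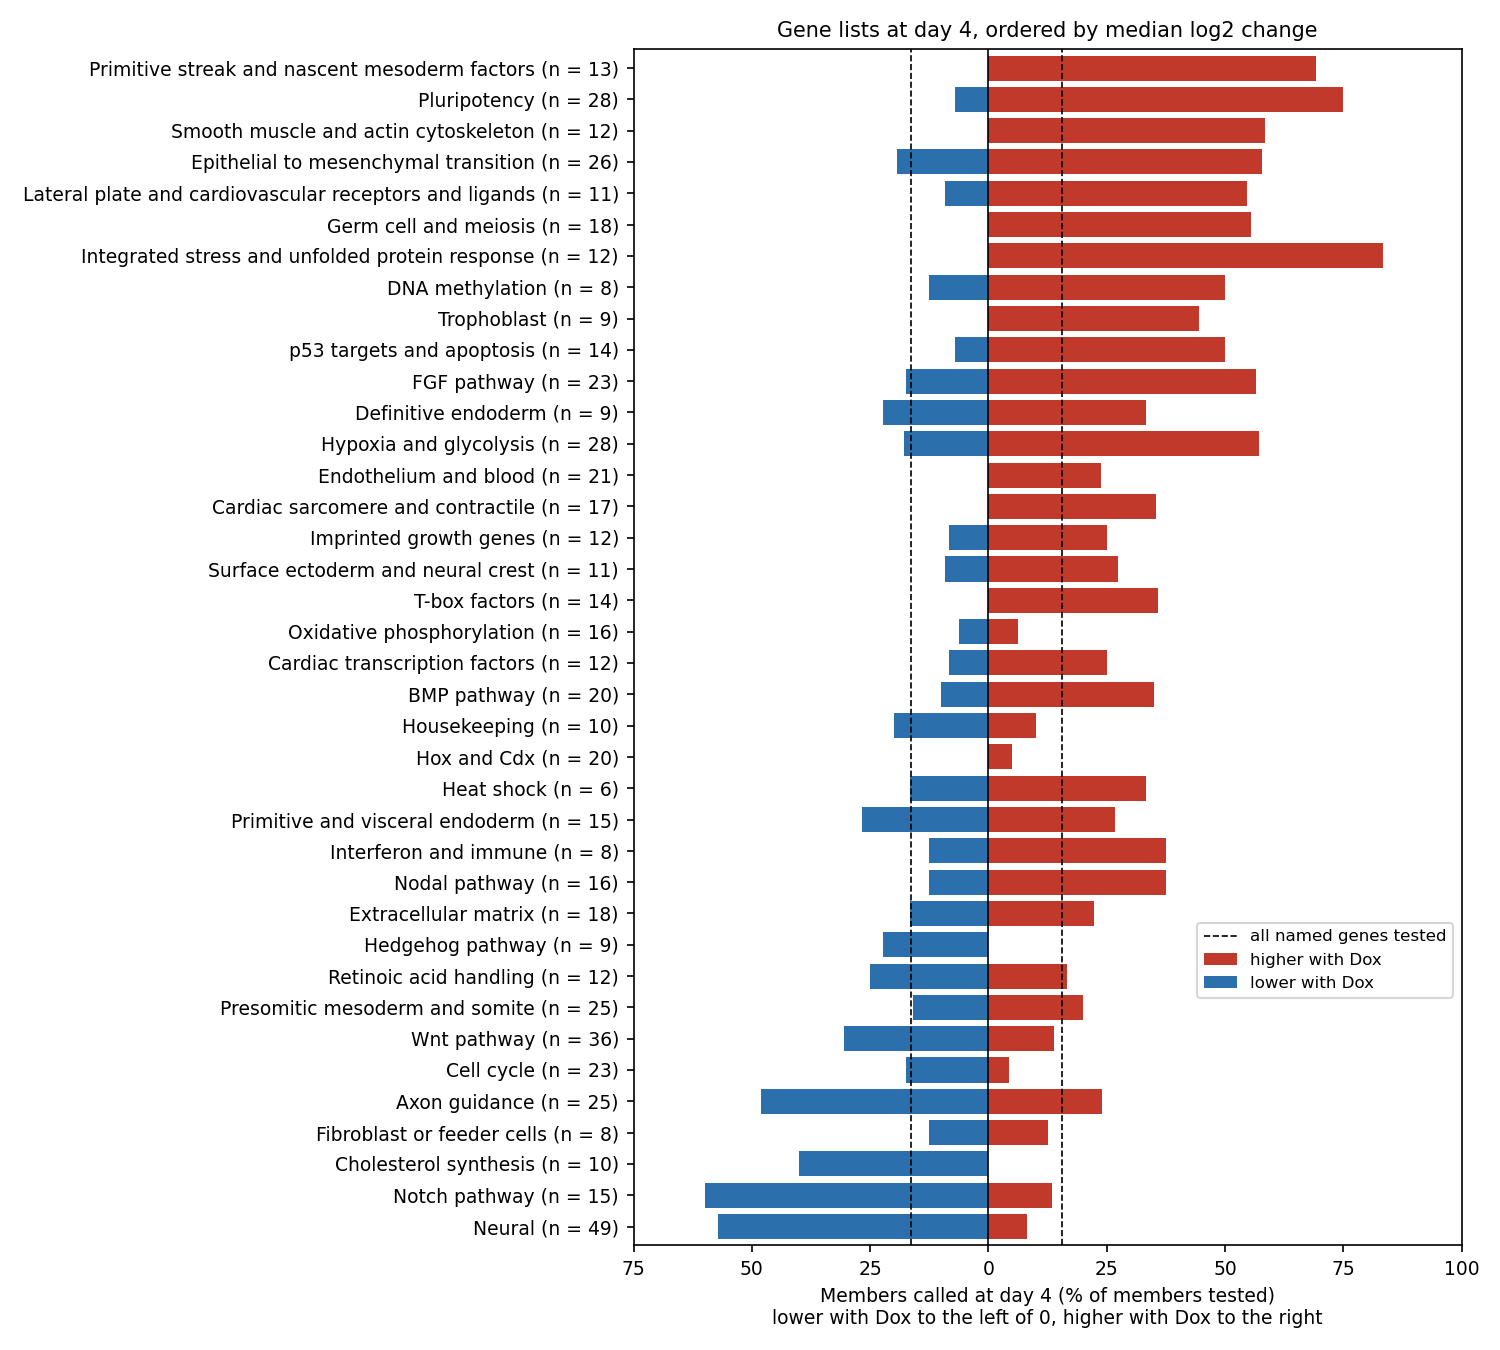
Share of the tested members of each gene list called at day 4 (x axis, %; lower with Dox to the left of 0, higher with Dox to the right), lists ordered by their median log2 change from the highest at the top; dashed lines mark the shares over all named genes, 16.3% lower and 15.6% higher. The streak, pluripotency and smooth muscle lists stand at the top, the Notch and neural lists at the bottom.

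Endoderm genes were divided. Of 9 measured definitive endoderm genes 3 rose and 2 fell, and Sox17, the factor of definitive endoderm and endothelium, did not pass (0.25 ± 0.21). Of 15 primitive and visceral endoderm genes 4 rose and 4 fell. Apoe (apolipoprotein E) rose by 1.95 ± 0.10, and Dab2, an endocytic adaptor, was at least 3.82-fold lower. Hnf4a did not pass (0.85 ± 0.27). The summed intensity of these 15 genes was 2008.4 and 2018.2 in DoxOn_day4, against 633.4 and 691.9 in DoxOFF_day4. That sum weighs the brightest members most, and the median log2 change of the 15 genes was 0. Apoa1 was above background in neither group.

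Germ cell and meiosis genes rose in 10 of 18 measured members, with 0 lower. The rises were 6 with no background correction and 6 in the deposited table of processed values, and 4 among probes above background on all 8 arrays, which takes out genes below background on any array. Sycp3, a protein of the synaptonemal complex, read 8.21 and 8.39 in DoxOn_day4, against 1.04 and 2.07 in DoxOFF_day4 at day 4 and 8.18 and 8.13 in DoxOn_day2, against 9.60 and 9.60 in DoxOFF_day2 at day 2, so that DoxOFF_day4 was the low group. Tfap2c, an AP-2 factor of germ cells and trophoblast, rose by 3.39 ± 0.17, and Tdrd12, which acts in the piRNA pathway, by 3.35 ± 0.13. Nanos3 (0.54 ± 0.18), Ddx4 (0.12 ± 0.11) and Kit (0.25 ± 0.19) did not pass. Of 9 trophoblast genes 4 rose and 0 fell. The placental and germ line homeobox gene Rhox6 read 7.18 and 7.56 in DoxOn_day4, against 2.10 and 1.56 in DoxOFF_day4, a rise of 5.53 ± 0.25, but was brightest in DoxOn_day2 (10.06 and 10.06). The trophoblast factors Cdx2 and Gata3 (0.16 ± 0.23) did not pass.

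As markers of feeder cells or fibroblasts, 8 genes were tested, of which 1 rose and 1 fell. Thy1, carried by fibroblasts and other cells, read 5.95 and 6.31 in DoxOn_day4, against 2.45 and 2.58 in DoxOFF_day4, a rise of 3.62 ± 0.16, and Dcn (decorin), a matrix proteoglycan, read 1.28 and 1.61 in DoxOn_day4, against 3.85 and 3.68 in DoxOFF_day4, a change of -2.32 ± 0.14. The collagen genes Col1a1 (-0.26 ± 0.16) and Col1a2 (-0.28 ± 0.33) did not pass. The summed intensity of the 8 genes was 151.0 and 164.0 in DoxOn_day4, against 137.7 and 97.3 in DoxOFF_day4. The higher sum with Dox rests on Thy1, while the median log2 change of the 8 genes was -0.27. Each gene was above background on at least 1 array of both groups. Without DoxOFF_day4 replicate 2, 3 of the 8 genes were called lower, and without either DoxOFF_day2 array 2. Their part in the results was not tested.

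The Dox effect itself differed between the days for many genes. The change at day 4 minus the change at day 2 was called for 4794 of 21661 probes (22.1%), 2414 higher (11.1%) and 2380 lower (11%). Of the named genes, 453 (2.94%) were called in opposite directions on the 2 days, 313 of them lower at day 2 and higher at day 4. The 2 contrasts share no array, but 1 estimate of the spread per probe served both, so the 2 calls of a gene are not independent. Of the 578 list genes tested 58 (10%) were of this kind, 51 lower at day 2 and higher at day 4 and 7 the reverse. The hypoxia and glycolysis list held 11 of the 58, all of them lower at day 2 and higher at day 4, and 18 of its 28 measured members were lower with Dox at day 2. Adm (adrenomedullin), a target of hypoxia-inducible factors, read 4.66 and 4.50 in DoxOn_day4, against 1.66 and 1.04 in DoxOFF_day4 at day 4 and 2.57 and 1.85 in DoxOn_day2, against 8.24 and 8.51 in DoxOFF_day2 at day 2, so that its change was 3.23 ± 0.29 at day 4 and -6.17 ± 0.29 at day 2. Egln3, an oxygen-sensing prolyl hydroxylase, changed by 3.54 ± 0.28 at day 4 and by -2.55 ± 0.28 at day 2. Aldoa, a glycolytic enzyme, changed by 1.18 ± 0.09 and -1.37 ± 0.09 in the same order. Ldha, the lactate dehydrogenase gene, rose by 1.45 ± 0.22 at day 4, and its day-2 change of -0.61 ± 0.22 did not pass (adjusted p = 0.133). At day 4, 16 of the 28 hypoxia and glycolysis genes measured rose and 5 fell, among which the glucose transporter genes Slc2a1 (-1.19 ± 0.10) and Slc2a3 (-1.09 ± 0.20) were lower on both days. Without DoxOn_day4 replicate 2 this list had 10 members higher and 3 lower at day 4, and without DoxOFF_day4 replicate 2 it had 2 lower. With any 1 of the 8 arrays left out, the day-4 call held for 51 of the 58 genes and the day-2 call for 25, Adm, Egln3, Aldoa, Pdgfra and Id3 being among those for which both held.

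**Figure D5:**
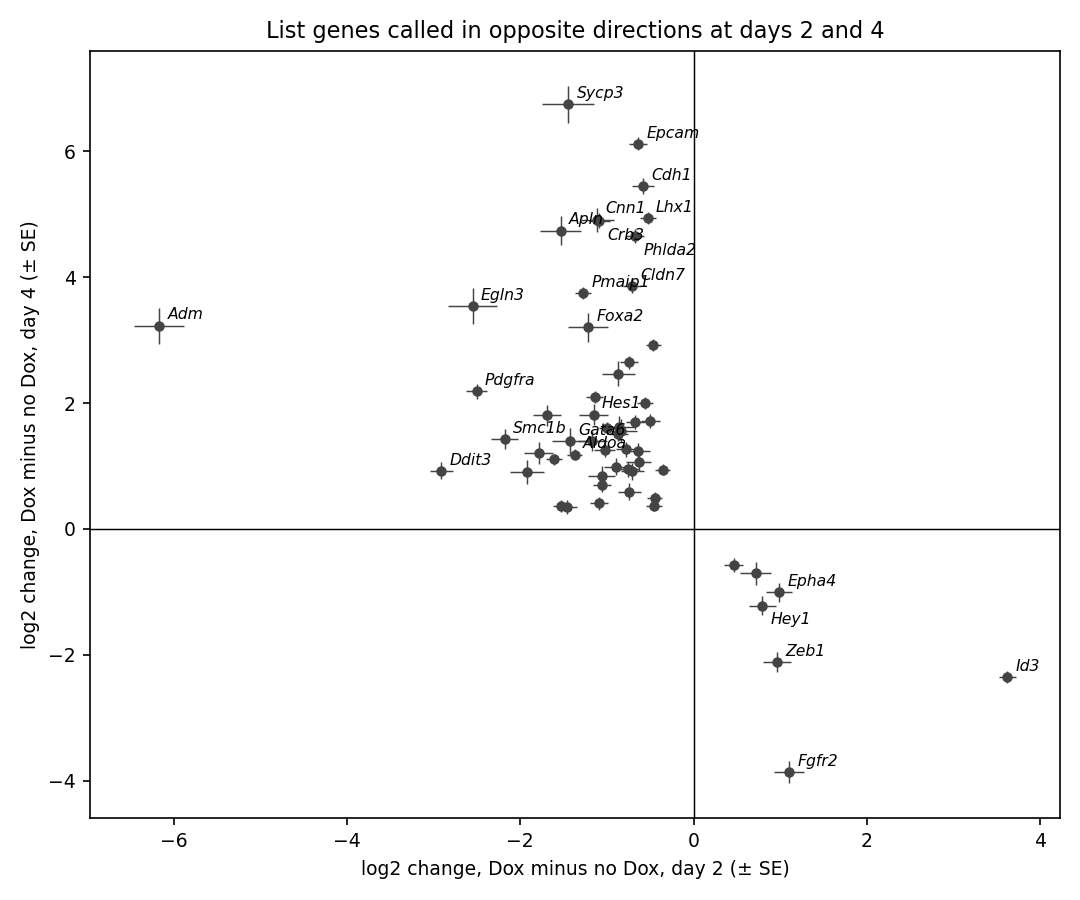
Log2 change with Dox at day 4 (y axis) against that at day 2 (x axis), each with its standard error, for the 58 list genes called in opposite directions on the 2 days. Adm, Egln3, Sycp3 and Pdgfra lie at upper left (lower at day 2, higher at day 4), and Id3, Fgfr2 and Zeb1 at lower right.

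Developmental genes with opposite changes included mesoderm receptors, epithelial genes and Id3. Pdgfra changed by 2.19 ± 0.12 at day 4 and by -2.50 ± 0.12 at day 2, where it read 1.04 and 1.25 in DoxOn_day2, against 3.67 and 3.63 in DoxOFF_day2. Apln changed by 4.74 ± 0.23 and -1.53 ± 0.23 on the same days, Lhx1 by 4.93 ± 0.09 and -0.53 ± 0.09, and Foxa2 by 3.20 ± 0.23 and -1.21 ± 0.23. Cdh1 and Epcam were lower with Dox at day 2, by much less than they were higher at day 4 (-0.58 ± 0.13 and -0.64 ± 0.10 at day 2). The day-2 calls of Apln, Lhx1, Foxa2, Cdh1 and Epcam did not hold when 1 day-2 array was left out, with the highest adjusted p at 0.0586 (log2 change -1.53 without DoxOn_day2 replicate 2) for Apln, 0.08 (log2 change -0.49 without DoxOn_day2 replicate 1) for Lhx1, 0.105 (log2 change -1.18 without DoxOn_day2 replicate 2) for Foxa2, 0.147 (log2 change -0.45 without DoxOFF_day2 replicate 1) for Cdh1 and 0.0586 (log2 change -0.63 without DoxOn_day2 replicate 2) for Epcam. In the reverse direction, Id3 changed by -2.35 ± 0.10 at day 4 and by 3.62 ± 0.10 at day 2, with 10.12 and 10.08 in DoxOn_day2, against 6.44 and 6.52 in DoxOFF_day2 as its day-2 levels. Its DoxOn levels on both days lay between a high DoxOFF_day4 and a low DoxOFF_day2. Fgfr2 changed by -3.86 ± 0.18 at day 4 and 1.10 ± 0.18 at day 2, and Zeb1 by -2.11 ± 0.16 and 0.97 ± 0.16, and their day-2 calls likewise did not hold without 1 of the day-2 arrays, the highest adjusted p being 0.071 (log2 change 1.05 without DoxOn_day2 replicate 1) for Fgfr2 and 0.0817 (log2 change 0.90 without DoxOn_day2 replicate 1) for Zeb1. Bmp4, by comparison, was higher with Dox on both days (3.96 ± 0.10 at day 4 and 5.09 ± 0.10 at day 2), the difference between the days being -1.12 ± 0.14 (adjusted p = 0.00185).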

How the data were processed

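Total RNA of embryoid bodies was amplified to amino allyl aRNA, coupled to Cy5 and hybridised to 8 single-colour Toray oligonucleotide arrays, per the labels' protocols. The authors deposited scanner output with a median intensity for each spot, put together from 3 scanner gains per the file headers, with a local background column and quality flags. The authors' other deposited table holds processed intensity values, scaled to a median of 25 on each array, on a linear scale, whose steps no label states. It was used as an alternative on the log2 scale.

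Because the local background column tracked each spot's own signal, the mean of the blank spots was subtracted in its place. Gene probes (23473) were quantile normalized between arrays, floored at 2.06 intensity units (2 blank SDs) and log2 transformed. A probe above the blank mean plus 2 SD on at least 2 arrays, with no spot marked as poor, was tested, which left 21661 and took out 1803 dim probes and 9 with a poor spot. Differences were tested with limma 3.58.1 in R 4.3.3, with 1 mean per group over all 8 arrays, eBayes (4 residual and 2.70 prior degrees of freedom) and Benjamini-Hochberg adjustment, threshold 0.05, 2-sided. Where no array of 1 group was above background, the gene was given as a bound against the lowest level above background there. Bounds rest on the blank spots. Gene names came from the platform's annotation (16631 with 1 symbol, 0 with several, 6842 with none), 3947 old symbols being updated through RefSeq (GRCm38.p6), and the brightest probe stood for a gene with several.

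Named genes are Tbx6 and T, the 25 largest rises and 25 largest falls measured in both groups, the 8 largest bounds each way, of which not all are printed, and members of 38 gene lists (670 genes) by role. Members and lists were chosen with earlier results of these data known. Counts of lists carry no test. Promoters (RefSeq) were searched by exact match. The fit was tested on simulated data. Figures were drawn with matplotlib 3.10.9.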

Additional observations from a re-analysis of the deposited data

Results flagged for a closer look

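Called changes of opposite direction on the 2 days were found by limma for 58 list genes, and they are given here for that reason. Each value is the change with Dox at day 4 minus that at day 2 on the log2 scale, which was called for each of them, as the choice of genes nearly fixes, and is positive where the gene was lower with Dox at day 2 and higher at day 4. Among hypoxia and glycolysis genes the difference was 9.40 for Adm, 6.09 for Egln3, 2.83 for Ddit4, 2.72 for Aldoc, 2.57 for Vegfa, 2.55 for Aldoa, 1.89 for Tpi1, 1.80 for Pfkl, 1.50 for Ankrd37, 0.94 for Eno1 and 0.82 for Pkm. Among epithelial genes it was 6.76 for Epcam, 6.03 for Cdh1, 5.98 for Crb3, 4.57 for Cldn7, 3.33 for Ocln, 2.21 for Spint1 and 1.62 for Tjp3. Among germ cell and meiosis genes it was 8.19 for Sycp3, 3.61 for Smc1b, 3.50 for Mael and 2.99 for Meioc. Among factors and receptors of streak, mesoderm and endoderm it was 6.27 for Apln, 5.46 for Lhx1, 4.69 for Pdgfra, 4.42 for Foxa2, 2.82 for Gata6, 3.40 for Lmo2, 2.04 for Hoxb1, 1.70 for Fgf8, 1.89 for Tcf7 and 2.97 for Hes1. Among muscle and actin genes it was 6.02 for Cnn1, 2.56 for Myl7, 2.40 for Myf5, 2.37 for Des and 2.28 for Tpm2. Among neural genes and the epiblast and methylation genes it was 3.23 for Gap43, 2.60 for Zic5, 2.38 for Stmn2, 1.91 for Slc1a3, 1.76 for Zic2, 3.38 for Dnmt3b and 1.88 for Dnmt3a. Among stress and apoptosis genes it was 5.02 for Pmaip1, 3.83 for Ddit3, 2.47 for Atf3, 1.34 for Herpud1 and 1.30 for Psat1. The imprinted gene Phlda2 had a difference of 5.33 and the ATP synthase gene Atp5o one of 1.70.

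The reverse order, higher with Dox at day 2 and lower at day 4, was called for 7 genes. The difference was -5.98 for Id3, -4.96 for Fgfr2, -3.08 for Zeb1, -2.02 for Hey1, -1.99 for Epha4, -1.42 for Notch1 and -1.04 for Dnajb1. The fitted values of Meioc and Myf5, which were above background on neither DoxOFF_day4 array, depend on the floor. Those of other genes with an array at the floor depend on it in part, among them Adm and Sycp3 in DoxOFF_day4 and Pdgfra in DoxOn_day2. Whichever of the 8 arrays was left out, the day-2 and day-4 calls and that of the difference all held for 21 of the 58 genes.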

How the results depend on the processing

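Counts of probes called stayed within 1.5 times those reported under every alternative run except normexp on the local background column. For Dox at day 4 and for the difference between the days limma called 6809 and 5601 probes with no background correction, 6365 and 4632 with median scaling, 6034 and 4305 in the deposited table of processed values, 6247 and 4682 among probes above background on all 8 arrays, and 6535 and 4990 with no filter. The day-4 arrays alone gave 4944. Leaving out 1 array gave between 4637 and 6120 probes at day 4 and between 3466 and 3925 for the difference. Of the list genes, 286 were called (180 higher and 106 lower), and between 242 and 283 when 1 array was left out. Beside the list counts given above, with no background correction 2 genes fell in each of the primitive and visceral endoderm (4 in the reported fit), DNA methylation, imprinted, p53 and surface ectoderm lists and 1 in the smooth muscle list. Among probes above background on all 8 arrays 3 endothelial and blood genes and 1 surface ectoderm gene rose, and 2 genes fell in the presomitic and somite list and in that of cardiac factors. In the deposited table of processed values 2 presomitic and somite genes, 1 housekeeping, 1 Hox and 0 immune genes fell. The day-4 arrays alone gave 5 definitive endoderm and 3 Wnt genes that rose and 0 DNA methylation, housekeeping and oxidative phosphorylation genes that fell. With the replicate block 2 Hox genes rose and 1 fell, and 1 T-box and 0 oxidative phosphorylation genes fell. With normexp the counts were 0 in all, for both comparisons, in each direction and for list genes. An unadjusted p under 0.05 was reached by 855 and 523 probes, both fewer than that threshold passes by chance. Logs of that column and of the spot signal correlated at 0.984 to 0.998, so that signal is subtracted. Under it the sign of the day-4 log2 change turned, with no call, for 52 genes named in the text: Tbx6 (-0.054), Nanog (-0.64), Epcam (-0.47), Ap1m2 (-0.098), Zfp42 (-0.23), Mixl1 (-0.0064), Rhox6 (-0.062), Cdh1 (-0.25), Alox15 (-0.0026), Crabp2 (0.82), Irx5 (0.14), Hes3 (0.033), Rspo2 (0.0012), Efna5 (0.055), Bambi (-0.056), Msx2 (-0.017), Id1 (-0.36), Myl7 (-0.017), Otx2 (0.063), Cxcr4 (0.0041), Rab25 (-0.034), Spry4 (-0.0005), Fgf4 (-0.029), Fgf8 (-0.002), Thy1 (-0.056), Tdrd12 (-0.0009), Meioc (-0.013), Hspb1 (-0.23), Hspb8 (-0.20), Dnajb1 (0.20), Gli2 (0.0103), Ldha (-2.08), Ankrd37 (-0.004), Chac1 (-0.29), Pdgfra (-0.004), Neurod4 (0.0035), Zic5 (-0.0053), En2 (0.019), Hes5 (0.081), Acvr2b (0.22), Smad4 (0.094), Dll3 (-0.077), Dll1 (0.036), Hes1 (-0.057), Hey1 (0.041), Atp5o (-0.11), Myf5 (-0.0072), Cnn1 (-0.10), Acta2 (-0.046), Tfap2b (0.016), Mga (-0.021), Tcf7 (-0.027). Of the 254 genes named, no day-4 change turned its sign under another alternative, and leaving out 1 array ended the calls of at most 10 of them. The groups share replicate numbers, whose meaning the labels do not give, and deviations of same-numbered DoxOn_day4 and DoxOFF_day4 arrays correlated at r = 0.0526 over probes, and those of the other 5 pairs of groups at -0.266 to 0.227. The fit with the replicate block gave 5915 probes at day 4 and 4154 for the difference. A block for slide or scan was not run, because the file headers give neither. In simulated data of this design 59% of 2-fold and 88% of 4-fold changes were recovered, with 6 false calls. Only 100 probes of each size were changed there among 21661, and the spreads were shuffled over probes. A far larger share of probes was called in the real data, so these rates need not hold for them. Dim genes are limited by the blanks, above whose mean the negative control spots lay by a median of 0.828 to 1.52 intensity units, so bounds set on those spots would be smaller.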

Other observations

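Genes of the integrated stress response, which amino acid shortage and unfolded proteins switch on through Atf4, were higher with Dox at day 4 in 10 of 12 measured members, with 0 lower and a median log2 change of 0.94. Chac1, which degrades glutathione, read 9.50 and 9.60 in DoxOn_day4, against 7.35 and 7.04 in DoxOFF_day4, a rise of 2.36 ± 0.12. Trib3 (1.79 ± 0.12), a pseudokinase, Asns (1.76 ± 0.20), asparagine synthetase, and Atf4 itself (0.94 ± 0.10) rose, while the chaperone genes Hspa5 (-0.21 ± 0.16) and Hsp90b1 (-0.02 ± 0.15) of the endoplasmic reticulum did not pass. Of 14 measured p53 targets and apoptosis genes 7 rose and 1 fell. Pmaip1 (Noxa) read 7.69 and 7.80 in DoxOn_day4, against 3.99 and 4.01 in DoxOFF_day4, a rise of 3.74 ± 0.10, Perp rose by 2.50 ± 0.12 and Cdkn1a (p21) by 1.25 ± 0.13, whereas Bbc3 (Puma) did not pass (-0.24 ± 0.10) and Ccng1 was lower (-0.84 ± 0.10). Of 6 measured heat shock genes 2 rose and 1 fell, the small heat shock protein genes Hspb1 (4.31 ± 0.12) and Hspb8 (2.54 ± 0.16) being the higher ones.

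Of 8 measured DNA methylation genes 4 rose and 1 fell, with the demethylating enzyme gene Tet1 (1.46 ± 0.10) and the de novo methyltransferase gene Dnmt3a (1.24 ± 0.13) higher beside Dnmt3b and Dnmt3l, while Uhrf1 did not pass (-0.27 ± 0.10). Among 12 imprinted growth genes 3 rose and 1 fell. Phlda2 read 7.64 and 7.56 in DoxOn_day4, against 2.96 and 2.93 in DoxOFF_day4, a rise of 4.65 ± 0.11, H19 rose by 2.11 ± 0.14 and Meg3 by 1.60 ± 0.19. Mest, an imprinted gene of mesoderm in the embryo, read 9.16 and 8.83 in DoxOn_day4, against 12.42 and 12.70 in DoxOFF_day4, a change of -3.56 ± 0.16, and Igf2 did not pass (-0.48 ± 0.41). Of 8 measured interferon and immune genes 3 rose and 1 fell. Irgm1, an interferon-inducible GTPase, read 7.35 and 6.71 in DoxOn_day4, against 2.05 and 1.71 in DoxOFF_day4, a rise of 5.15 ± 0.22, whereas Irf7 (-0.53 ± 0.20) did not pass. In the extracellular matrix list 4 of 18 measured members rose and 3 fell. Of 11 surface ectoderm and neural crest genes 3 rose and 1 fell, Tfap2b (-2.22 ± 0.24).

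Counts for lists of general cell functions follow, beside 15.6% of all named genes called higher and 16.3% called lower. Of 16 oxidative phosphorylation genes 1 rose and 1 fell, of 23 cell cycle genes 1 rose and 4 fell, and of 10 cholesterol synthesis genes 0 rose and 4 fell. Of 10 measured housekeeping genes 1 rose and 2 fell. Hprt, a purine salvage enzyme gene often used as a reference, read 11.32 and 11.29 in DoxOn_day4, against 9.49 and 9.37 in DoxOFF_day4, a rise of 1.87 ± 0.09, whereas Actb (0.25 ± 0.16) and Tbp (-0.33 ± 0.14) did not pass. Without DoxOn_day4 replicate 1 the count of lower genes was 0 in the DNA methylation, housekeeping, immune and oxidative phosphorylation lists and 2 in the cell cycle list. It was also 0 for housekeeping, immune and oxidative phosphorylation genes without DoxOn_day4 replicate 2 or either DoxOFF_day2 array, for housekeeping and oxidative phosphorylation genes without DoxOFF_day4 replicate 1, for DNA methylation and oxidative phosphorylation genes without DoxOFF_day4 replicate 2, and for DNA methylation genes without either DoxOn_day2 array. With no background correction 5 oxidative phosphorylation genes rose, 7 cell cycle genes fell and 6 cholesterol synthesis genes fell. Genes outside all lists with large rises included S100a10 (6.43 ± 0.12), a calcium-binding annexin partner, Pmepa1 (5.96 ± 0.13), an inhibitor of TGF-beta signalling, Alox15 (5.34 ± 0.22), a lipoxygenase, and Pim2 (5.32 ± 0.12), a survival kinase. Trap1a (6.17 ± 0.16) also rose, as did Chmp4c (5.31 ± 0.15), a gene of the membrane-severing ESCRT machinery. Pla2g10, a secreted phospholipase, was at least 48.6-fold higher. Among the falls outside the lists, Ndp (norrin), a ligand of a Frizzled receptor, changed by -5.19 ± 0.28, Plat, the tissue plasminogen activator, by -5.10 ± 0.10, Rgs2, a regulator of G protein signalling, by -4.40 ± 0.10 and Cldn10, a tight junction gene, by -4.27 ± 0.10. Rspo2, an R-spondin, was at least 13.2-fold lower.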
